A study of Mus musculus with 16 samples.

Results

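Chemokines and chemokine receptors are described here in the kidneys of 16 mice of 4 genotypes. The members are all genes whose symbol begins with Ccl, Cxcl, Ccr, Cxcr, Xcl, Xcr, Cx3cl, Cx3cr or Ackr followed by a number, and whose probe exceeded its background clearly in 4 or more of the 16 mice. Of 62 such genes in the RefSeq table, 57 had a named probe and 40 passed this filter, out of 16401 named genes tested on the array. The 40 members were 27 chemokines and 13 receptors, and 23 of them were well above background on every array. The other 17 members passed through part of the mice, so a count over members is a description and no support for a genotype effect. Another 17 genes of the family did not pass, among them Ackr1, Ccr1, Ccr3, Cxcl2, Cxcl5, Cxcr2 and Xcr1. Cxcl11 had no named probe and was not analysed here.

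Each genotype had 4 mice, all 6 months old, with 1 array per mouse from whole kidney. The mice were WT on C57BL/6, Fcgr2b-ko on 129/C57BL/6, Fcgr2b-ko, Sting-ko on 129/C57BL/6 (called double-deficient here) and Sting-ko on C57BL/6. The Fcgr2b-ko mice, labelled as lupus mice, lack the inhibitory Fc receptor on B cells and myeloid cells from birth, and the Sting-ko mice carry the inactive gt allele of the sensor adaptor Sting. According to the methods WT mice were purchased, while double-deficient mice came from a cross of both lines, and a heatmap heading in the study writes the Fcgr2b-ko genotype with one gt allele of Sting. Fcgr2b genotype, strain and source of the mice therefore cannot be told apart. The labels do not give the sex, and Y-linked signal was present in 2 WT, 1 Fcgr2b-ko, 2 double-deficient and 1 Sting-ko mice. According to the study the kidneys were not perfused, so blood in the tissue was measured with it. The arrays lay on 2 slides, with 3 of the 4 Fcgr2b-ko arrays on the first and 3 of the 4 double-deficient arrays on the second.

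Chemokines are small secreted proteins that guide leukocytes by binding receptors coupled to G proteins on the cell surface. Inflammatory chemokines are made on demand by macrophages, tubule cells and endothelium and draw monocytes, T cells and neutrophils into a tissue, while homeostatic chemokines keep cells in place and arrange lymphoid tissue. Atypical receptors bind chemokines without the usual signalling and remove them. In lupus nephritis, ligands of Ccr2 and Cxcr3 are known for bringing in the leukocytes that damage glomeruli and tubules.

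The 250 bases upstream of the transcription start site were taken from RefSeq (build GRCm38.p6, C57BL/6J sequence) for members with an entry, 30 of the 40. The promoters of Ccl3, Ccl9 and Cxcl13 are shown because these genes had among the largest differences between Fcgr2b-ko and WT mice, that of Ccl20 because of its difference between double-deficient and Fcgr2b-ko mice, and that of Cxcl10 because it is a textbook target of interferon and NF-kB. Capitals mark letters that match one of 4 motifs on either strand, which are the NF-kB consensus decamer, the core of the interferon-stimulated response element (GAAA, any 2 bases, GAAA), the AP-1 site TGANTCA and the PU.1 core GAGGAA. Each line runs 5′ to 3′ along the strand of the gene and ends at the base before the start site.
Ccl3, minus strand of chr11:83649379-83649628: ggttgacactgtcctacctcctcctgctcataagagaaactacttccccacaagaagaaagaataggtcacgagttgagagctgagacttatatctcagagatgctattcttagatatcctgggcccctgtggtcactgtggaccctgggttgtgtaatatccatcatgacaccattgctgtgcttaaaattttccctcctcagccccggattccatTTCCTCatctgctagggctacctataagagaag
Ccl9, minus strand of chr11:83578637-83578886: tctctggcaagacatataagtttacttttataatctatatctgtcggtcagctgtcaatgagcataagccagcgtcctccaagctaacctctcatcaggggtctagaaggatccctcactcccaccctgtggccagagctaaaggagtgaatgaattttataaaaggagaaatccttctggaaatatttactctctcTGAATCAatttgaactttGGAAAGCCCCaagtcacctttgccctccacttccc
Ccl20, plus strand of chr1:83116516-83116765: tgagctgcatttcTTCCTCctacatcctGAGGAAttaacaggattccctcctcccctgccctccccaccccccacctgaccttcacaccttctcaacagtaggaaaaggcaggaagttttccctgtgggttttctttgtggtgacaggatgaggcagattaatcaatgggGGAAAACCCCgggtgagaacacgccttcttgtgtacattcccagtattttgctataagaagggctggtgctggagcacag
Cxcl10, minus strand of chr5:92348890-92349139: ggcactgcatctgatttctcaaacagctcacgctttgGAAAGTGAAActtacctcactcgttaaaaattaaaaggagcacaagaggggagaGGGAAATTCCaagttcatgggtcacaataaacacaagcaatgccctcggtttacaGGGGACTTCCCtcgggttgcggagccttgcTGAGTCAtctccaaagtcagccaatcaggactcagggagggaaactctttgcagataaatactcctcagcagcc
Cxcl13, plus strand of chr5:95956689-95956938: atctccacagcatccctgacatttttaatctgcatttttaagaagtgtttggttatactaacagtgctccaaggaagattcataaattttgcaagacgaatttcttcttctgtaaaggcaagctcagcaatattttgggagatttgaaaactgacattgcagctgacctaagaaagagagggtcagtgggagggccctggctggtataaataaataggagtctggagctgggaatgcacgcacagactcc

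The Cxcl10 promoter held the NF-kB decamer, the interferon-stimulated response element core and the AP-1 site, and the Ccl9 promoter held the NF-kB decamer and the AP-1 site. In the Ccl3 promoter only the PU.1 core was matched, in Ccl20 the NF-kB decamer and the PU.1 core, and in Cxcl13 none of the 4. Over the members with a promoter, the NF-kB decamer was found in 5 of 30 (16.7%) against 7.01% of 27025 promoters of all genes in the same window. The interferon-stimulated response element core was found in 3 of 30 against 3.04%, the AP-1 site in 2 of 30 (6.67%) against 6.87%, and the PU.1 core in 10 of 30 (33.3%) against 23.1%. A match describes the letters of a C57BL/6J sequence and is no evidence of binding, and in the 129/C57BL/6 mice the sequence was not read.

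Levels are given as log2 of the processed spot intensity after setting the 75th percentile of each array to 0, so a difference of 1 is 2-fold, and levels of different genes cannot be set against each other. A probe was called at a limma adjusted p under 0.05 (Benjamini-Hochberg over all 35629 probes tested) with at least a 2-fold difference. The targeted gene itself was read first. Fcgr2b was 2.13, 1.91, 1.60 and 1.14 in WT mice, 0.70, 0.02, 0.06 and 0.19 in Fcgr2b-ko mice, -0.04, 0.50, -0.40 and -0.24 in double-deficient mice and 1.54, 1.05, 0.70 and -0.19 in Sting-ko mice. Both Fcgr2b-deficient groups lay below every WT mouse, and the lowest Sting-ko mouse lay among them. The Sting1 probe did not separate the genotypes, with means of -0.23 in WT, 1.20 in Fcgr2b-ko, 0.10 in double-deficient and 0.29 in Sting-ko mice.

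In Fcgr2b-ko mice against WT, the inflammatory CC chemokines stood highest among the members, although no member was called. All 11 measured genes of that group had a higher mean in Fcgr2b-ko mice, 10 of them by at least 2-fold, with a median log2 difference of 2.86. Ccl8 was 11.2-fold higher on average, and Cxcl13, the B cell attractant, was next. Ccl3 and Ccl4, attractants of macrophages and T cells, were 10.3-fold and 9.37-fold higher, the Ccl3 value resting partly on dim WT spots. Of the 40 members 0 were called, with the smallest adjusted p of 0.215 for Ccl3, while 18 of all probes were called (0.0505%). At an unadjusted limma p under 0.05, 15 members were higher and 0 lower, against 2.64% of all probes higher and 0.71% lower. Over the members the median log2 difference was 1.05, against -0.06 over all probes tested, and 21 of 40 members were at least 2-fold higher against 4.33% of all probes. The methods' two-tailed Mann-Whitney test without adjustment, at 2-fold, passed 3 members, and its smallest exact p with 4 against 4 mice is 0.0286. Without the filter on dim probes, 47 of 57 family genes had a higher mean in Fcgr2b-ko mice and 19 had an unadjusted limma p under 0.05. The median log2 difference over all unfiltered probes was -0.02. Their share at that p is not given, so these counts describe the family alone.

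Ccl3 was -3.26, -5.47, -4.49 and -4.26 in WT mice, -0.10, -1.96, -2.26 and 0.31 in Fcgr2b-ko mice, -2.64, -2.17, -2.39 and -3.21 in double-deficient mice and -2.16, -3.80, -5.59 and -4.54 in Sting-ko mice. Every Fcgr2b-ko mouse lay above every WT mouse, and so did every double-deficient mouse. Ccl3 was well above background on 2 WT, 4 Fcgr2b-ko, 4 double-deficient and 2 Sting-ko arrays, so its differences from WT rest partly on dim spots. The difference between Fcgr2b-ko and WT was 3.37 ± 0.71 (SE, n = 4 per group), with a 95% interval of 1.87 to 4.87 and a limma adjusted p of 0.215. Ccl4 was -0.95, -3.21, -2.69 and -2.21 in WT mice, 2.47, 0.02, -0.67 and 2.03 in Fcgr2b-ko mice, -0.91, 0.05, -1.04 and -1.71 in double-deficient mice and -0.01, -2.33, -2.56 and -2.31 in Sting-ko mice. The Fcgr2b-ko and WT groups did not overlap for Ccl4 either, and the difference was 3.23 ± 0.73 (limma adjusted p = 0.322). Ccl9, a macrophage-derived ligand of Ccr1, was 0.60, -1.77, -2.32 and -2.18 in WT mice, 3.83, 0.63, 0.35 and 2.31 in Fcgr2b-ko mice, -0.75, 1.21, -0.57 and -0.81 in double-deficient mice and -0.15, -1.91, -1.35 and -2.05 in Sting-ko mice. WT replicate 1 overlapped the lower Fcgr2b-ko mice, and the difference was 3.20 ± 0.79 (limma adjusted p = 0.473). Groups that did not overlap with Fcgr2b-ko higher were found for 3 members, Ccl3, Ccl4 and Cxcl13, against 0.62% of all probes.

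**Figure D1:**
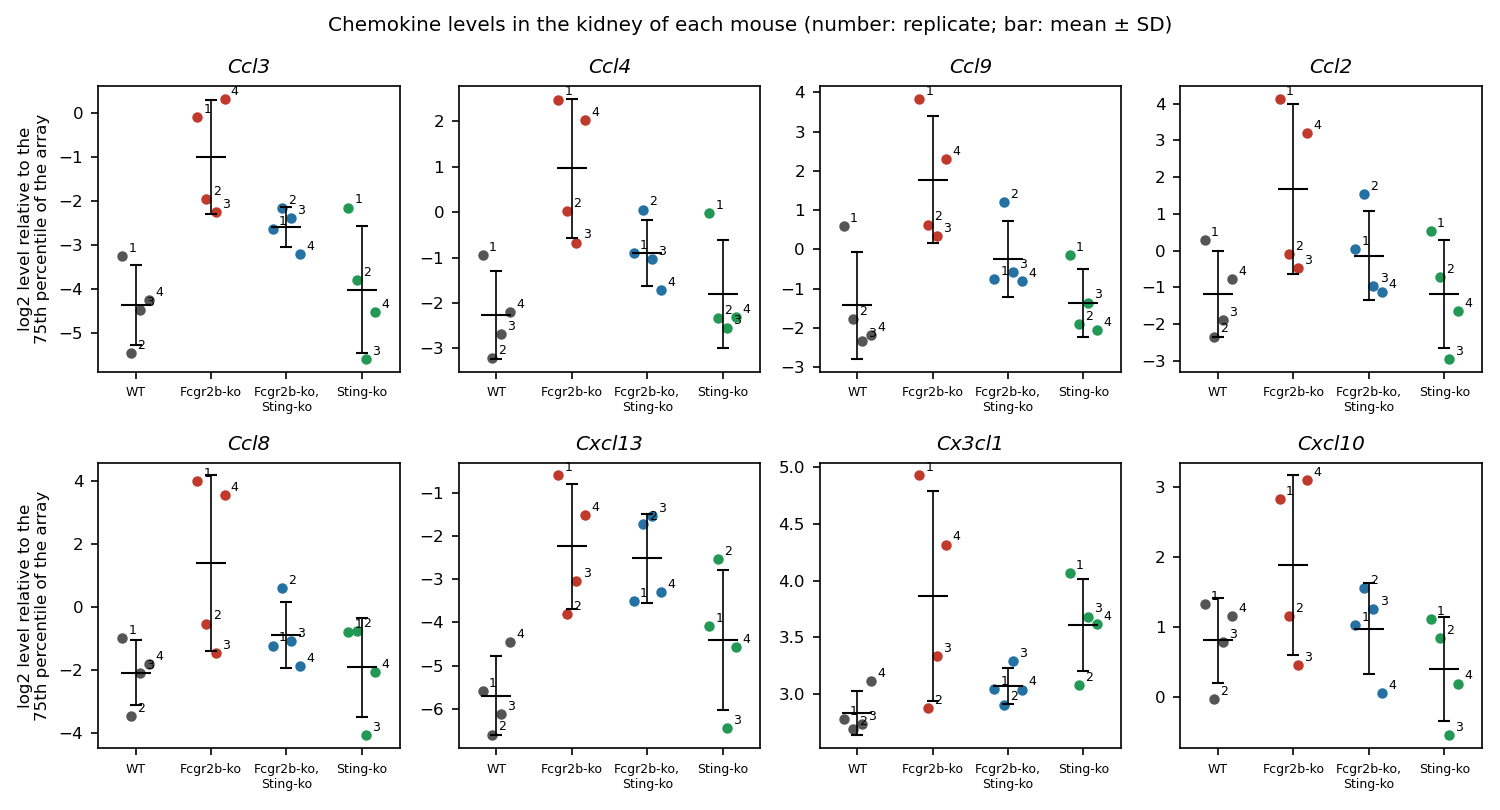
Level of 8 chemokines in each mouse (y axis, log2 of intensity, with 0 at each array's 75th percentile) by genotype (x axis), with the replicate number beside each point and bars for the mean ± SD of 4 mice. Fcgr2b-ko replicates 1 and 4 are above the other Fcgr2b-ko mice in every panel, and Cxcl13 is the gene whose double-deficient mice, between -3.51 and -1.55, lie all above the WT mice and within the range of the Fcgr2b-ko mice.

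The ligands of Ccr2, the receptor that brings monocytes out of the blood, varied more among the Fcgr2b-ko mice. Ccl2 was 0.28, -2.34, -1.88 and -0.77 in WT mice, 4.12, -0.09, -0.47 and 3.19 in Fcgr2b-ko mice, 0.03, 1.53, -0.97 and -1.12 in double-deficient mice and 0.54, -0.71, -2.94 and -1.64 in Sting-ko mice. Fcgr2b-ko replicates 1 and 4 were above all other mice, and replicates 2 and 3 lay within the WT range. The difference between Fcgr2b-ko and WT was 2.86 ± 1.02 for Ccl2, 3.09 ± 1.16 for Ccl7 and 2.31 ± 0.94 for Ccl12 (limma adjusted p = 0.9996 each). Ccl8, which was not grouped with the Ccr2 ligands here, differed by 3.48 ± 1.11 (limma adjusted p = 0.957). Ccl8 was -0.99, -3.46, -2.11 and -1.81 in WT mice and 3.98, -0.53, -1.45 and 3.56 in Fcgr2b-ko mice. In the double-deficient mice it was -1.23, 0.60, -1.09 and -1.87, and in the Sting-ko mice -0.79, -0.75, -4.07 and -2.07. Again the high values belonged to Fcgr2b-ko replicates 1 and 4. Ccr2 itself had a mean of -1.68 ± 1.70 (SD, n = 4) in WT and -0.53 ± 1.90 in Fcgr2b-ko mice, a difference of 1.15 with an interval of -0.99 to 3.29. Among its WT mice replicate 1 alone stood at 0.86, with the other 3 at -2.37 or lower.

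Ccl5, made by T cells and injured tubule cells, was 1.49 ± 0.67 higher and Ccl6, a macrophage chemokine, 2.07 ± 0.84 higher, both with a limma adjusted p of 0.9996. Ccl11 and Ccl24, the eosinophil attractants, were well above background on 9 and 5 of the 16 arrays and had differences of 0.90 ± 1.01 and 1.31 ± 1.20. Their receptor Ccr3 did not pass the filter.

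Genes of the inflammatory CC group lie next to each other in 2 stretches of chromosome 11. The order is Ccl2, Ccl7, Ccl11, Ccl12, Ccl8 and Ccl1 in the first, and Ccl5, Ccl9, Ccl6, Ccl3 and Ccl4 in the second. Ccl1 was not placed in the inflammatory CC group here and did not pass the filter. In the first stretch the 5 members had differences from 0.90 to 3.48 between Fcgr2b-ko and WT mice, and 4 of them had an unadjusted limma p under 0.05, which 2.64% of all probes had with a higher mean. In the second, the 5 members had differences from 1.49 to 3.37, and the p was under 0.05 for all 5. The Cxcl9 and Cxcl10 pair on chromosome 5 had differences of 0.81 and 1.07. On chromosome 4, the differences of Ccl27a, Ccl19 and Ccl21a ran from -0.23 to 0.84.

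Cxcl13 recruits B cells through Cxcr5. It was -5.59, -6.59, -6.13 and -4.46 in WT mice, -0.60, -3.80, -3.03 and -1.52 in Fcgr2b-ko mice, -3.51, -1.72, -1.55 and -3.30 in double-deficient mice and -4.09, -2.53, -6.44 and -4.56 in Sting-ko mice. Both Fcgr2b-deficient groups lay above every WT mouse, while Sting-ko replicate 2 lay among them. The difference from WT was 3.46 ± 0.82 in Fcgr2b-ko mice (limma adjusted p = 0.385) and 3.18 ± 0.82 in double-deficient mice (limma adjusted p above 0.99). Double-deficient and Fcgr2b-ko mice differed by -0.28, with an interval of -2.03 to 1.47. Cxcl13 was well above background on 1 WT, 3 Fcgr2b-ko, 4 double-deficient and 2 Sting-ko arrays. Its receptor Cxcr5 was well above background on 5 of 16 arrays and differed by 0.37 ± 0.79 between Fcgr2b-ko and WT mice (-0.23 without Fcgr2b-ko replicate 1). B cell markers, with 3 of 4 measured, had mean levels between -3.77 and -0.37 in WT, -2.89 and -0.56 in Fcgr2b-ko, -2.71 and -0.06 in double-deficient and -2.27 and -0.98 in Sting-ko mice.

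The fractalkine pair also differed between Fcgr2b-ko and WT mice before adjustment. Cx3cl1, the membrane-bound ligand made by endothelium and epithelium, was 2.78, 2.69, 2.74 and 3.12 in WT mice, 4.93, 2.88, 3.34 and 4.32 in Fcgr2b-ko mice, 3.04, 2.91, 3.29 and 3.04 in double-deficient mice and 4.07, 3.08, 3.68 and 3.62 in Sting-ko mice. WT and double-deficient mice were tightly grouped, and 3 of 4 Sting-ko mice lay above all of them. The differences were 1.03 ± 0.37 for Fcgr2b-ko against WT and 0.78 ± 0.37 for Sting-ko against WT, with limma adjusted p of 0.9996 and 0.732. Cx3cr1, its receptor on monocytes and resident macrophages, was 1.05, -1.24, -0.76 and -0.01 in WT and 3.72, 0.04, 0.98 and 2.79 in Fcgr2b-ko mice, a difference of 2.12 ± 0.70. In double-deficient mice it was -0.03, 1.19, 0.93 and 0.15, and in Sting-ko mice 1.55, -0.30, 0.53 and 0.54.

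Cxcl10 and Cxcl9, the interferon-inducible ligands of the T cell receptor Cxcr3, did not stand apart. Cxcl10 was 1.32, -0.03, 0.78 and 1.15 in WT, 2.82, 1.15, 0.46 and 3.09 in Fcgr2b-ko, 1.03, 1.55, 1.26 and 0.05 in double-deficient and 1.11, 0.84, -0.55 and 0.19 in Sting-ko mice. Replicates 1 and 4 of the Fcgr2b-ko group were high and replicate 3 was below the WT mean of 0.81. The difference from WT was 1.07 with an interval of -0.13 to 2.27 for Cxcl10, 0.81 with an interval of -1.26 to 2.89 for Cxcl9 and 1.32 with an interval of -0.17 to 2.82 for Cxcr3. Cxcl1, a neutrophil attractant, differed by 1.45 with an interval of -0.66 to 3.57, and its receptors Cxcr1 and Cxcr2 did not pass the filter. Ccl20, the ligand of Ccr6, was -5.17, -5.04, -4.62 and -4.24 in WT, -1.55, -3.95, -4.92 and -2.23 in Fcgr2b-ko, -4.04, -4.94, -5.09 and -7.15 in double-deficient and -5.24, -4.56, -4.65 and -4.36 in Sting-ko mice. It was well above background on 9 of 16 arrays, and its difference between Fcgr2b-ko and WT was 1.60 ± 0.68. The receptor Ccr6 differed by 0.84 ± 0.75 between the same groups.

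The chemokines that hold cells in place or arrange lymphoid tissue had differences of various sizes between Fcgr2b-ko and WT mice. Cxcl12, the stromal ligand that holds cells in place, had means of 3.17 ± 0.60 in WT, 3.44 ± 0.55 in Fcgr2b-ko, 3.44 ± 0.48 in double-deficient and 3.73 ± 0.84 (SD, n = 4 each) in Sting-ko mice. Its receptor Cxcr4 was -3.20, -4.35, -3.80 and -3.15 in WT and -0.18, -3.42, -2.94 and -1.52 in Fcgr2b-ko mice, a difference of 1.61 ± 0.53 (limma adjusted p = 0.9996). Ackr3, the atypical receptor that takes up Cxcl12, differed by -0.08 with an interval of -0.91 to 0.75 (0.04 after quantile normalization, 0.05 in the deposited table), and Ackr2, which scavenges inflammatory CC chemokines, by 1.16 with an interval of -0.49 to 2.81. Ccl19 and Ccl21a, the lymphoid ligands of Ccr7, differed by 0.75 and 0.84, and Ccr7 by 0.62 with a range of 0.04 to 1.30 over mice left out. Ccl21a has near-identical copies whose transcripts its probe may also read. The membrane-bound Cxcl16 differed by 0.79 with an interval of -0.13 to 1.72, and its receptor Cxcr6 by 0.69 with an interval of -1.19 to 2.56 and a value of 0.0038 without Fcgr2b-ko replicate 1. The 6 members with a lower mean in Fcgr2b-ko than WT mice had differences from -0.76 to -0.08, and among them Xcl1, a T cell and NK cell product, was at -0.11.

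**Figure D2:**
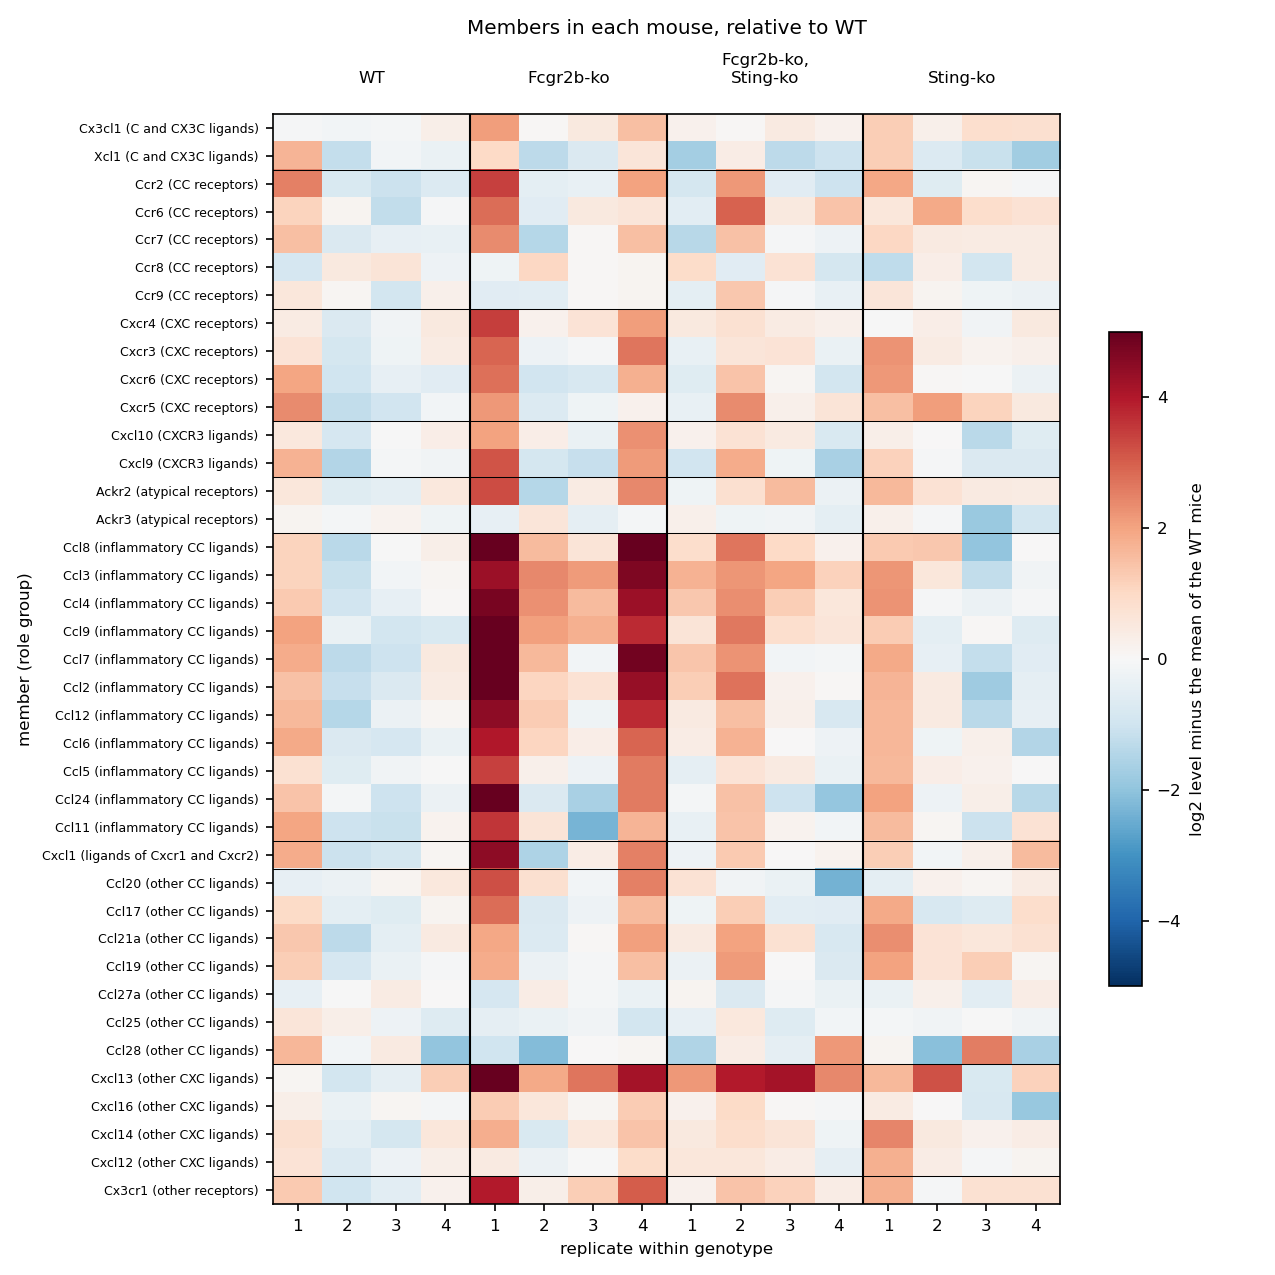
Level of 39 members (rows, by role group) in each mouse (columns, by genotype and replicate), as the log2 difference from the mean of the 4 WT mice. The inflammatory CC ligands are darkest in Fcgr2b-ko replicates 1 and 4, and WT replicate 1, double-deficient replicate 2 and Sting-ko replicate 1 are redder than the rest of their groups.

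Single mice carried much of the spread within each genotype. Fcgr2b-ko replicates 1 and 4 lay above replicates 2 and 3 for 34 of 40 members, against 22.0% of all probes. Replicates 1 and 4 both lay above all WT mice for 26 members, against 9.75% of all probes, and replicates 2 and 3 both did for 3, against 2.62%. Counting members at least 2-fold above the WT mean gave 32, 11, 6 and 30 in Fcgr2b-ko mice, 23, 0, 0 and 1 in WT mice, 5, 24, 6 and 4 in double-deficient mice and 29, 4, 3 and 2 in Sting-ko mice. The same share over all probes was 20.0%, 3.28%, 5.46% and 9.43% in Fcgr2b-ko mice, 14.2%, 1.43%, 1.24% and 1.60% in WT mice, 2.001%, 11.5%, 5.46% and 2.93% in double-deficient mice and 11.5%, 4.24%, 6.42% and 21.0% in Sting-ko mice. Sting-ko replicate 4 thus had the largest share of all probes with 2 members among them. WT replicate 1 was the highest WT mouse for 33 members, double-deficient replicate 2 the highest of its group for 31 and Sting-ko replicate 1 the highest of its group for 29. Of the 40 members, 29 had their highest value among all 16 mice in an Fcgr2b-ko mouse, 25 of these in replicate 1.

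Leukocyte markers were high in the mice with many high chemokines, and injury markers in 2 of those mice. Ptprc, the pan-leukocyte marker, was 1.70, -1.40, -1.28 and -0.59 in WT, 3.56, -0.18, 0.08 and 2.55 in Fcgr2b-ko, 0.10, 1.38, 0.23 and -0.29 in double-deficient and 1.55, 0.06, -0.64 and -0.53 in Sting-ko mice. Its highest mouse in each genotype was one with many members above the WT mean. Of 9 monocyte and macrophage markers, 8 had a higher mean in Fcgr2b-ko than WT mice, against 43.4% of all probes. At an unadjusted limma p under 0.05, 7 of these markers were higher, against 2.64% of all probes. The mean level of the 9 markers ran from 2.34 to 4.54 in Fcgr2b-ko mice and from 1.04 to 2.66 in WT mice. It ran from 1.82 to 2.91 in double-deficient and from 1.09 to 2.77 in Sting-ko mice. The injury markers Havcr1 and Lcn2, both of 2 listed, had mean levels of 2.17 and 1.98 in Fcgr2b-ko replicates 1 and 4 and from -3.25 to -1.53 in the other 14 mice, with -2.78 in WT replicate 1 and -2.75 in Sting-ko replicate 1. T cell markers ran from -1.73 to 0.83 in Fcgr2b-ko and from -1.82 to -0.51 in WT mice, and neutrophil markers, with 5 of 7 measured, from -1.16 to 1.79 and from -1.40 to 0.61. Proximal tubule markers were between 5.25 and 7.19 in all mice, so the labelled tissue was present on every array. They were lowest of their genotype in WT replicate 1 (6.24), Fcgr2b-ko replicate 1 (5.25), double-deficient replicate 2 (6.38) and Sting-ko replicate 1 (6.33). Endothelium markers were highest of their genotype in the same mice, at 2.42, 1.99, 1.57 and 2.37. The difference in marker levels of these mice was thus not particular to leukocytes. Fat markers stood at 1.40 in WT replicate 1, 1.14 in Fcgr2b-ko replicate 1 and 0.27 in Sting-ko replicate 1 and at or below -0.64 in the other 13 mice. In whole kidney, more cells of a type and more RNA per cell cannot be told apart, and the part of these cells in the chemokine values was not tested.

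**Figure D3:**
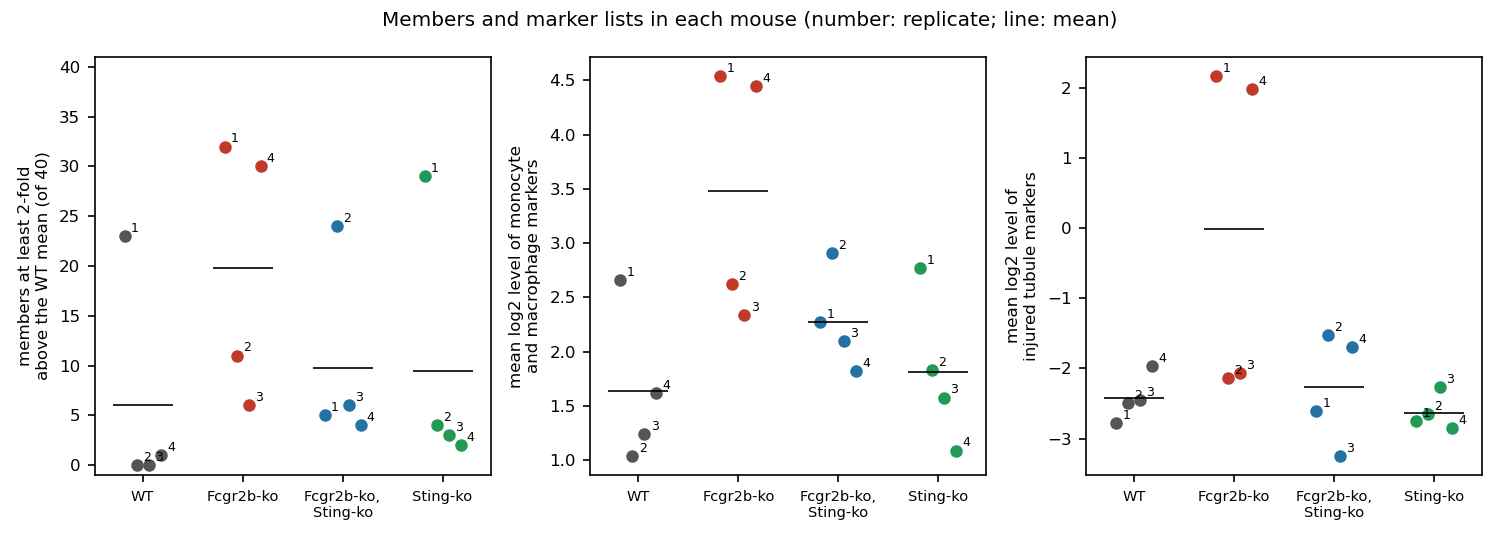
Number of members at least 2-fold above the WT mean (left), mean log2 level of 9 monocyte and macrophage markers (middle) and mean log2 level of 2 injured tubule markers (right) in each mouse, by genotype (x axis), with the replicate number beside each point and a line at the mean of 4 mice. Fcgr2b-ko replicates 1 and 4, with 32 and 30 members, are the highest in all 3 panels.

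Leaving out single mice and reading within slides gave the following values. The count of members at an unadjusted limma p under 0.05 in Fcgr2b-ko against WT was 15 with all mice, 8 without Fcgr2b-ko replicate 1, 10 without replicate 4, 20 without replicate 2 and 19 without replicate 3. It was 14 without WT replicate 1 and 10 without WT replicate 2. With the slide as a block it was 13. The share of all probes at that p in these settings is not given, so the counts describe the members alone. The median log2 difference over all probes was -0.01, -0.04, -0.09 and -0.08 without Fcgr2b-ko replicates 1, 4, 2 and 3. Within the first slide, which held Fcgr2b-ko replicates 1, 2 and 4 and WT replicates 1 and 2, Ccl3 differed by 3.78, Ccl4 by 3.59, Ccl9 by 2.84, Cxcl13 by 4.12 and Ccl8 by 4.56. On the second, with Fcgr2b-ko replicate 3 and WT replicates 3 and 4, they differed by 2.12, 1.78, 2.60, 2.26 and 0.50. The single Fcgr2b-ko mouse of the second slide was above the WT mean of that slide for 25 of 40 members and 7 of 11 inflammatory CC chemokines, against 35 of 40 and 11 of 11 on the first. The share of all probes within a slide is not given either. The differences of this mouse were -1.84 for Ccl11, -0.95 for Ccl24, -0.18 for Ccl5 and -0.10 for Ccl12. They were -0.99 for Cxcl9, -0.51 for Cxcl10 and -0.50 for Ccl20.

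The comparison of double-deficient with Fcgr2b-ko mice sets Sting genotypes side by side in mice without Fcgr2b. It shares the Fcgr2b-ko mice with the comparison above, so its values are given beside those and are not independent of them. By the heatmap heading, the Fcgr2b-ko mice themselves carried a gt allele of Sting. Ccl8, Ccl7, Ccl20 and Ccl9 had the lowest differences, at -2.29, -2.25, -2.14 and -2.01. Ccl7 and Ccl20 were well above background on 2 of 4 double-deficient arrays each, so their differences rest partly on dim spots. Of 40 members 0 were called, and 0 of all probes (0.0%), with limma adjusted p above 0.99 throughout. At an unadjusted limma p under 0.05, 5 members were lower (Ccl20, Ccl9, Ccl4, Ccl3 and Cx3cl1) and 0 higher, against 1.16% of all probes lower and 0.654% higher. The median over members was -0.84, against 0.06 over all probes, and 18 members were at least 2-fold lower against 2.64% of all probes. No member had every double-deficient mouse below every Fcgr2b-ko mouse, against 0.281% of all probes.

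Ccl20 differed by -2.14 ± 0.68 with an interval of -3.59 to -0.69, Ccl9 by -2.01 ± 0.79 with an interval of -3.70 to -0.32 and Ccl4 by -1.87 ± 0.73 with an interval of -3.43 to -0.30. Ccl3 differed by -1.60 ± 0.71 and Cx3cl1 by -0.79 ± 0.37. For Ccl3, double-deficient replicates 2 and 3, at -2.17 and -2.39, lay beside Fcgr2b-ko replicates 2 and 3, at -1.96 and -2.26. The Ccr2 ligands Ccl2 and Ccl12 differed by -1.82 and -1.95 with intervals that included 0, and the receptor Cx3cr1 by -1.32. Cxcl10 differed by -0.91 with an interval of -2.11 to 0.29. Ccl24 differed by -1.71, Ccl5 by -1.41, Ccr2 by -1.23, Cxcr3 by -1.17, Cxcl1 and Cxcr4 by -1.13 and Cxcl9 by -1.05. Xcl1 was at -0.80, Cxcr6 at -0.69, Ackr2 at -0.68, Ccr7 at -0.67 and Ccl11 at -0.63. Cxcl16, Ccl19 and Ccl21a were at -0.50, -0.47 and -0.23, and Ccr6 and Cxcr5 at 0.24 and 0.35. The unadjusted limma p of each of these genes was above 0.05. The intervals of Cxcl12 and Ackr3 were -0.91 to 0.91 and -0.90 to 0.76, and the sign of both values changed with the scaling or the slide block. The 6 members with a higher mean in double-deficient mice were at most 0.90 higher.

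**Figure D4:**
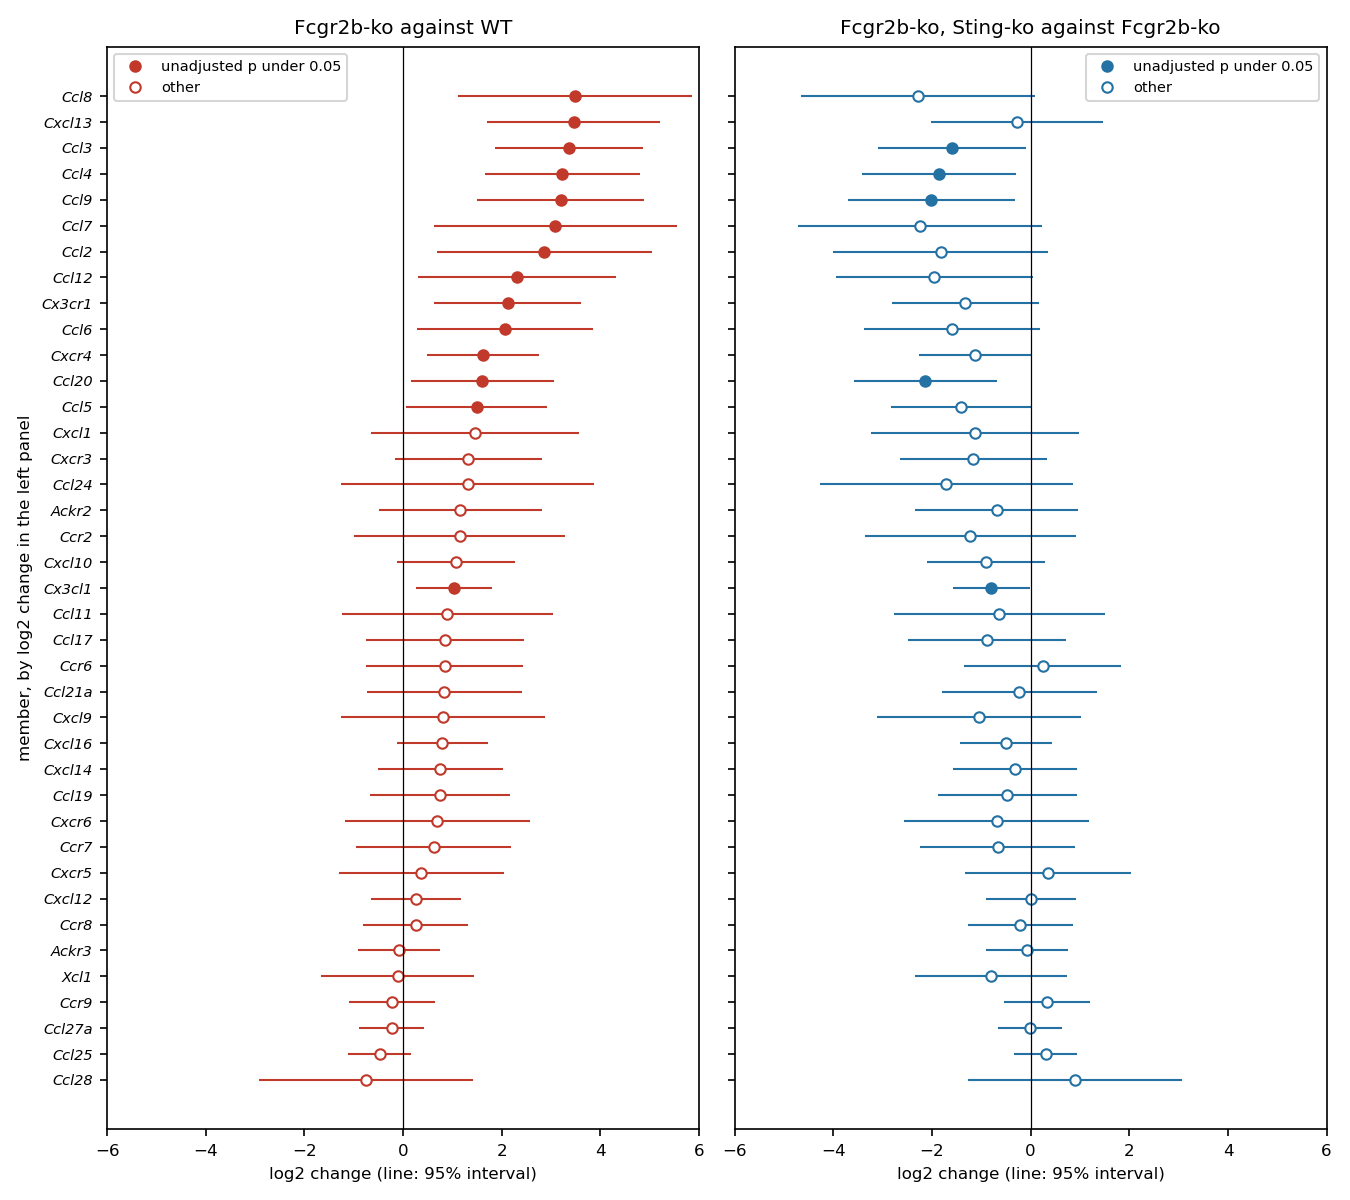
Log2 difference of 39 members (y axis, ordered by the left panel) for Fcgr2b-ko against WT (left) and Fcgr2b-ko, Sting-ko against Fcgr2b-ko (right), with 95% intervals from limma, and filled points for an unadjusted p under 0.05. Ccl8 heads the left panel at 3.48, 5 points are filled on the right, and Cxcl13 is second on the left and at -0.28 on the right. Both panels use the same 4 Fcgr2b-ko mice.

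The 5 members lower at an unadjusted p under 0.05 became 1 without Fcgr2b-ko replicate 1, 1 without Fcgr2b-ko replicate 4, 1 without double-deficient replicate 4 and 1 with the slide as a block. Without Fcgr2b-ko replicate 2 or 3 the count was 15 or 17, and without double-deficient replicate 2 it was 10. For these settings too, the share of all probes is not given. On the first slide, which held 1 double-deficient mouse, Ccl3 differed by -2.06, Ccl4 by -2.42, Ccl9 by -3.01 and Ccl20 by -1.47. On the second, which held 1 Fcgr2b-ko mouse, these were -0.33, -0.23, -0.41 and -0.80. With 3 of 4 Fcgr2b-ko arrays on one slide and 3 of 4 double-deficient arrays on the other, slide and genotype were largely tied in this comparison.

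Against WT, double-deficient mice had 0 of 40 members called (0.0% of all probes called). Ccl3 and Cxcl13 were the 2 members higher at an unadjusted limma p under 0.05, against 0.298% of all probes, and also the 2 whose groups did not overlap, against 0.317%. Ccl3 was 1.77 ± 0.71 higher with an interval of 0.27 to 3.27, and Cxcl13 3.18 ± 0.82 higher. Against Sting-ko mice, in which strain differs as well, double-deficient mice had 0 members called (0.0%), and Cxcl13 alone had an unadjusted limma p under 0.05 (1.63% of all probes higher), at 1.89 ± 0.82. Sting-ko against WT was a comparison within C57BL/6, though the methods name different sources for WT and Sting-deficient mice. It had 0 members called (0.0%), and Cx3cl1 was the only member higher at an unadjusted limma p under 0.05, a share near the 1.84% of all probes. That count was 0 with normexp, quantile normalization, median scaling, the deposited table, the slide block or the Y-linked covariate. Of 30 measured genes of the ligand and receptor pairs, 22 had a higher mean in double-deficient than WT mice (50.6% of all probes). The number was 12 for double-deficient against Sting-ko mice (51.0%) and 23 for Sting-ko against WT mice (50.1%). The differences lay between -0.92 and 3.18, -0.74 and 1.89, and -0.65 and 1.29. Over the 40 members, 29 had a higher mean in Sting-ko than WT mice, 20 without WT replicate 2 and 18 without Sting-ko replicate 1.

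The interaction asks whether the Sting-ko difference is another one without Fcgr2b than with it. Of the members 0 were called (0.0%), and 4 had an unadjusted limma p under 0.05 with a lower value (2.66% of all probes), Ccl4 at -2.33 ± 1.04, Ccl20 at -2.21 ± 0.96, Cx3cr1 at -2.14 ± 0.99 and Cx3cl1 at -1.58 ± 0.52, each with a limma adjusted p of 0.661. The count of 4 was 1 with the slide block, quantile normalization, the deposited table or the Y-linked covariate. It was also 1 without Fcgr2b-ko replicate 1 or 4, without WT replicate 2 or without double-deficient replicate 4. Without Fcgr2b-ko replicate 2 or 3 it was 11 or 12. Shares of all probes in these settings are not given. Cx3cl1 was higher by 0.78 in Sting-ko than WT while its double-deficient minus Fcgr2b-ko difference was -0.79. Over all 4 genotypes, limma's F test called 0 members against 0.0196% of all probes, and 10 members had an unadjusted p under 0.05 against 1.77%, among them Ccl3, Cxcl13, Ccl4 and Ccl9.

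Genes around the chemokines were read from lists. Over all probes, 43.4% had a higher mean in Fcgr2b-ko than WT mice, and 2.64% were higher at an unadjusted limma p under 0.05. Of 28 genes that carry the signal of chemokine receptors, 25 had a higher mean in Fcgr2b-ko than WT mice and 8 an unadjusted limma p under 0.05, and 0 of these were lower. Pik3r5, a regulator of the phosphoinositide kinase of leukocytes, was 2.91 higher, Vav1 and Rac2, which drive the cytoskeleton of moving leukocytes, 2.20 and 1.89, and Arrb2, the arrestin that ends receptor signalling, 1.02. The broadly expressed Gnai3, Gnb1, Rhoa and Cdc42 differed by -0.01, -0.04, 0.05 and -0.07. Of 14 measured inducers and regulators of chemokine expression out of 19 listed, 13 had a higher mean and 5 an unadjusted limma p under 0.05. Il1b, the inflammasome cytokine, was 3.20 higher, Irf7 1.22 and the NF-kB subunit Relb 1.24, while Tnf differed by -0.11. Of 8 measured chemoattractant genes outside the symbol rule, 6 had a higher mean, and Pf4, the platelet chemokine, was 1.30 higher with an unadjusted limma p under 0.05.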

How the data were processed

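RNA from whole kidney of 16 mice, 4 per genotype, was labelled with Cy3 from 100 ng each and hybridised to one-colour arrays, 1 mouse per array. The authors deposited scanner files of Agilent Feature Extraction 11.0, whose processed values are spot intensities after background subtraction, unscaled between arrays, and their own normalized log2 table, used as an alternative. Intensities were averaged per probe, put on the log2 scale and shifted so that the 75th percentile of every array was 0 (Python 3.11.15, pandas 2.3.3, numpy 2.4.6, scipy 1.17.1), without control and outlier spots. There were 0 saturated spots, and between 28443 and 35566 of 56605 probes per array were well above background. The number of arrays limits the precision.

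Probes clearly over background on 4 or more arrays entered limma 3.58.1 (R 4.3.3; lmFit, then eBayes) with the 4 genotypes as groups, and Benjamini-Hochberg adjustment covered all probes tested. Nothing in the labels says more of the replicates than that they are separate samples, so p-values measure the spread between these samples. Probes were named through the RefSeq table of GRCm38.p6, which named 32994 of 56605 probes (58.3%), and a gene is given by its brightest probe. Of 9 members with several tested probes, 0 had probes of opposite sign in Fcgr2b-ko against WT and 1 in double-deficient against Fcgr2b-ko. The number was 2 in Sting-ko against WT, 3 in double-deficient against WT, 6 in double-deficient against Sting-ko and 2 in the interaction.

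The rule named, in every comparison, the genes of 13 ligand and receptor groups whatever their values, and up to 12 members with an unadjusted p under 0.05 by size. In the 4 comparisons other than Fcgr2b-ko against WT and double-deficient against Fcgr2b-ko, the genes of these groups are given by counts and ranges, which departs from that rule. The members, lists and motifs were chosen with earlier results of these data known. The values of 1 member are not reported here, though counts over the members include it. The limma script was checked on simulated data. Alternatives were the background correction, the scaling, the deposited table, the filter, the fit, the probe rule, slide and replicate blocks, each array left out, and the methods' Mann-Whitney test. Y-linked signal as a covariate was added after seeing the data.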

Additional observations from a re-analysis of the deposited data

Results flagged for a closer look

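In 128 groups of 4 mice, the levels of each named member shown in each genotype, the gap between the most extreme mouse and its neighbour was compared with Dixon's 95% critical share of the range. Chance passes about 1 in 20 groups, and 9 passed. Of these, 5 were Sting-ko replicate 1, with Ccl21a at 3.24 (next 1.68), Ccl4 at -0.013 (next -2.31), Cxcr3 at 0.0062 (next -1.85), Cxcr6 at 1.17 (next -0.95) and Ccr7 at -1.50 (next -2.12). WT replicate 1 stood apart for Ccr2 at 0.86 (next -2.37) and Ccr7 at -1.04 (next -2.91). Double-deficient replicate 2 stood apart for Ccl9 at 1.21 (next -0.57) and Ccr2 at 0.48 (next -2.26). In each case the mouse that stood apart was the high one, and these are the mice with the highest Ptprc of their genotypes.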

How the results depend on the processing

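No member was called in any of the 6 contrasts or the F test under the limma alternatives, with a smallest adjusted p of 0.0991 (scaling by the median) in Fcgr2b-ko against WT. The methods' Mann-Whitney test without adjustment passed 3 members in Fcgr2b-ko against WT and 2 in double-deficient against WT, and 0 after adjustment. The median log2 difference of the members over arrays left out ran from 0.46 to 1.51 in Fcgr2b-ko against WT, -1.37 to -0.35 in double-deficient against Fcgr2b-ko, 0.06 to 0.68 in double-deficient against WT, -0.09 to 0.72 in Sting-ko against WT, -0.38 to 0.19 in double-deficient against Sting-ko and -1.87 to -0.80 in the interaction, so 2 of these medians changed sign. Over all named genes in all 6 contrasts, 179 of 5038 alternatives changed the sign of a difference, in 54 of 184 gene results, and no alternative brought one past the threshold. The largest main difference among these was 0.746. In Fcgr2b-ko against WT, Cxcr5 was -0.00820 with normexp and from -0.23 to 1.15 over arrays left out, Ackr3 0.045 with quantile normalization, 0.048 in the deposited values and from -0.31 to 0.037 over arrays left out, and Xcl1 from -0.51 to 0.45. In double-deficient against Fcgr2b-ko, normexp gave -0.013 for Cxcr5 and -0.016 for Cxcl12, for which quantile normalization gave -0.085, the deposited values -0.061 and the median over probes -0.11. With the slide as a block Ackr3 was 0.26 and Ccl11 0.012, and with Y-linked signal as a covariate Ackr3 was 0.068. Over arrays left out in that contrast, Cxcl13 ran from -0.80 to 0.26, Cxcr5 from -0.20 to 0.95, Cxcl12 from -0.19 to 0.23, Ackr3 from -0.21 to 0.16, Ccl21a from -0.74 to 0.23, Ccr6 from -0.38 to 0.89, Ccl11 from -1.70 to 0.26 and Ackr2 from -1.54 to 0.010. The causes were not tested. Of 24 pairs of same-numbered mice, 11 deviated together (correlation over 0.1), with a median correlation of -0.06 against -0.03 for pairs of other numbers. In the deposited values, same-numbered arrays of all 4 genotypes have the same median, at 5.54, 4.93, 5.14 and 5.38 for replicates 1 to 4. The number thus carries structure in those values, and the correlations cannot tell whether the mice were paired. With the replicate block 0 members were called, the smallest adjusted p in Fcgr2b-ko against WT was 0.111, and members lower at an unadjusted p under 0.05 in double-deficient against Fcgr2b-ko went from 5 to 13. With normexp this count was 11, with scaling by the median 10, in the deposited values 3 and with Y-linked signal as a covariate 3. The share of all probes under these alternatives is not given. Scaling by the median moved the median of all probes in Fcgr2b-ko against WT from -0.06 to -0.21.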
